A study of Mus musculus with 8 samples.

Results

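The genes described here build and feed the DNA replication fork: 44 genes for origin licensing, helicase activation, DNA polymerases, the sliding clamp, single-strand binding, Okazaki fragment processing, nucleotide supply and chromatin assembly behind the fork. They were taken as a named list and matched by symbol to the Entrez identifiers of the deposited tables, and 44 of 44 were found among 24112 genes. RNA was measured in lineage-negative Sca1+ Kit+ (LSK) cells, the mouse bone marrow fraction enriched for blood stem and early progenitor cells. The cells came from C57BL/6 mice after transplantation, reconstituted either with Vav-Cre+ marrow (wild type, WT, 4 libraries) or with Traf6-/-;Vav-Cre+ marrow (KO, 4 libraries). Both groups therefore carried Cre under the Vav promoter, whose activity covers the whole blood lineage rather than stem cells alone, and both had been through transplantation. The sources used here do not give the age of the mice, the time after transplantation or the number of mice behind a library. Whether a group's libraries stem from different animals is likewise not stated, and the p-values reflect variation from library to library, part of which may be technical.

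Before S phase, the origin recognition complex, CDC6 and CDT1 load the ring-shaped MCM2-7 helicase onto DNA, and CDC45 and the GINS complex then turn the loaded ring into a moving helicase. Primase and the polymerases copy the opened strands, the PCNA clamp holds the polymerases in place, and ribonucleotide reductase and its partner enzymes supply the deoxynucleotides. Most blood stem cells rest outside the cell cycle, whereas the early progenitors that share the LSK gate divide often, and many replication genes are switched on at the start of S phase by E2F transcription factors.

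The E2F motif is shown first because it is a sequence feature that part of the list shares. The 250 bases before each annotated start were taken from the RefSeq promoter table (GRCm38.p6), which held 37 of the 44 genes with 43 start sites; Gins1, Gins2, Gins4, Mcm4, Pole, Prim2 and Rfc2 were not matched. The motif was searched on both strands as TTTCCCGC, TTTCGCGC, TTTGGCGC or TTTGCCGC. It was present for 10 of the 37 genes (27.0%), against 583 of 27025 genes (2.16%) in the whole table. By window, the shares were 10 of 43 (23.3%) and 611 of 32851 (1.86%). The whole table, here and for the motifs below, was not limited to expressed genes or matched for base composition. Each searched form of the E2F motif contains CG. Each line gives the match in capitals with flanking bases, 5′ to 3′ on the strand of the gene.
Cdc6, chr11:98908003-98908030, plus strand: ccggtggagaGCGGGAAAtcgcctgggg
Orc1, chr4:108579417-108579444, plus strand: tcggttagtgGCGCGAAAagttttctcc
Mcm5, chr8:75109346-75109377, plus strand: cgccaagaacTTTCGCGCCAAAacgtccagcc
Mcm6, chr1:128359794-128359825, minus strand: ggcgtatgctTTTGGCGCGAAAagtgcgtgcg
Mcm7, chr5:138172031-138172058, minus strand: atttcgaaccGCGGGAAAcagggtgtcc
Gins3, chr8:95633508-95633535, plus strand: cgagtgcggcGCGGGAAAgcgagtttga
Pola1, chrX:93632276-93632303, minus strand: tcatcacaggGCGCCAAAtgcactcccg
Rfc3, chr5:151651209-151651228, minus strand: cgtcgcacgcTTTCGCGCtc
Uhrf1, chr17:56304118-56304145, plus strand: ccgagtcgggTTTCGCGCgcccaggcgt
Hells, chr19:38930918-38930945, plus strand: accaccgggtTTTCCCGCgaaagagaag
In Mcm5 and Mcm6 the capitals cover 2 overlapping matches, 1 on each strand, and Mcm6 held a further match, not printed, whose first base is at -47 relative to the start. The matches of Mcm7 and Uhrf1 belong to 1 of 2 annotated starts of each gene.

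Another element, CCAAT, which binds the factor NF-Y, was found on either strand for 24 of the 37 genes (64.9%), against 37.5% of all genes in the table. The cell cycle homology motif TTTGAA was present for 5 of the 37 genes (13.5%), against 18.3% of all. A consensus κB motif was found for 3 of the 37 (8.11%), against 8.23% of all. TRAF6, the deleted ubiquitin ligase, relays Toll-like receptor signals towards NF-κB, the factor that binds κB motifs. A match is a description of letters in a window and not a measured binding site.

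The values are taken as RPKM (reads per kilobase, scaled by library size), a unit inferred from the values. Levels can then be compared between genes, and between libraries as far as that scaling holds. Depth, estimated from the steps between the lowest values, was 19.3 to 24.8 M reads (M, mega) in the WT libraries and 22.5 to 30.7 M reads in the KO libraries. All WT libraries, KO1 and KO2 were sequenced on lane 4, and KO3 and KO4 on lane 5, so both lane 5 libraries are KO. KO3 and KO4 stood apart: of the 11276 genes tested, 2712 (24.1%) were listed at 0 in KO3 and 1278 (11.3%) in KO4, against 927 in WT2 and 30 to 194 in the other 5 libraries. WT2, on lane 4, was thus the next library in this respect, and the values for lane 4 alone still include it; a further alternative leaves out WT2, KO3 and KO4. Results that rest on KO3 or KO4 are also given for lane 4 alone. Traf6, the targeted gene, had 14.9, 3.52, 9.40 and 7.10 RPKM in the WT libraries and 0.613, 0.818, 0 and 0.00721 RPKM in KO. The groups did not overlap (exact 2-sided permutation p = 0.0286, the smallest that 70 assignments allow), although limma's adjusted p over all genes was 0.341. The markers used in the LSK gate and close to it (Kit, Ly6a, Cd34, Flt3, Slamf1 and Cd48) summed to 536 to 604 RPKM in WT and 418 to 508 RPKM in KO. By log2 difference all 6 were lower in KO, as were 6878 of the 11276 genes, with 0 at an adjusted p under 0.05 (limma). Flt3 alone did not overlap (59.3 to 89.2 RPKM in WT, 31.4 to 54.0 RPKM in KO), against 5.92% of all genes. Ly6a, which encodes Sca1, was at 6.53 to 11.8 RPKM. B lymphoid markers Cd79a, Ms4a1, Pax5 and Igll1 and the T cell marker Cd3g were at 0 in all 8 libraries, and Ebf1, Cd3e, Cd4, Cd8a and Gzma stayed under 1 RPKM. Of the same lists, Cd79b was at 4.78 to 16.3 RPKM and Nkg7, a granule gene of NK cells, at 376 to 723 RPKM in every library, while Vpreb1, Cd3d and Klrb1c reached 5.59, 3.42 and 8.20 RPKM.

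All 44 genes were expressed and all passed the filter of at least 1 RPKM in at least 4 libraries. Their mean levels ran from 5.54 RPKM (Gins3) to 254 RPKM (Mcm7), with a median of 47.6 RPKM against 12.5 RPKM for all genes tested. The genes above 100 RPKM were 6 in number: Mcm7, Pcna, Mcm6, Mcm3, Rfc2 and Mcm2. At the low end, 8 genes averaged under 20 RPKM. Together the 44 genes made up 0.573% to 0.622% of the summed RPKM in WT and 0.553% to 0.598% in KO. Their median SD within groups was 0.32 on the log2(RPKM + 1) scale, against 0.59 over all genes tested. The 44 genes also had the higher median level, and no comparison with genes of like level was made. A smaller spread is therefore not shown to be particular to them. In sorted cells, fewer dividing cells and less RNA per dividing cell cannot be told apart.

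**Figure D1:**
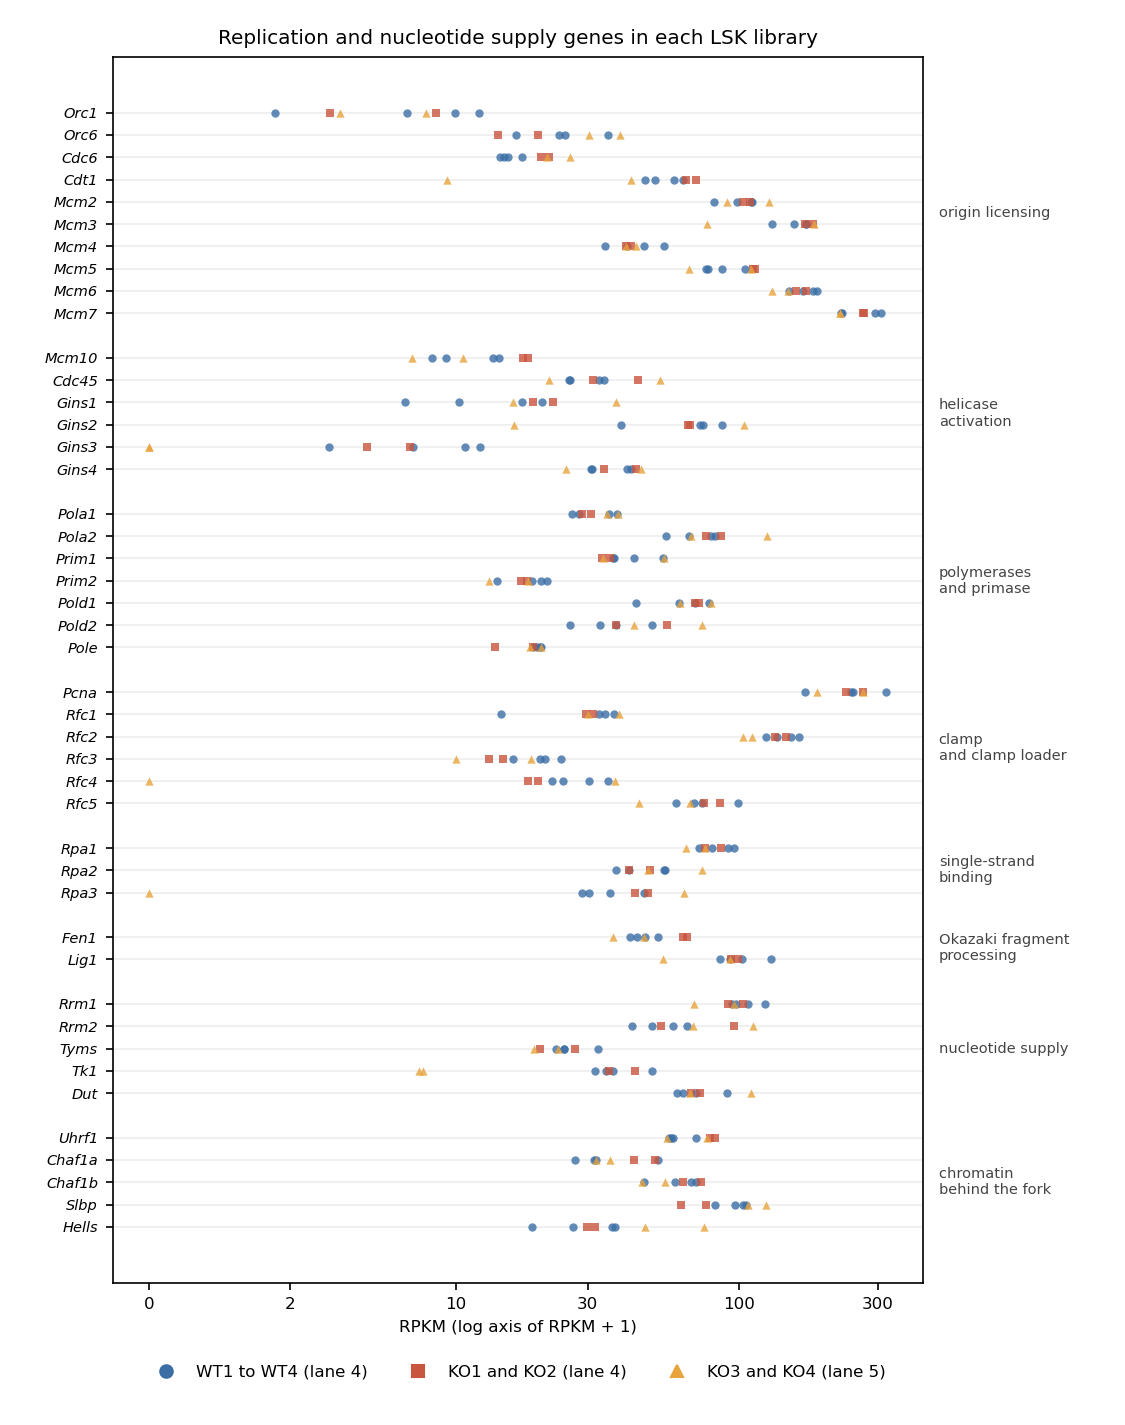
RPKM of each of the 44 genes in the 8 libraries, on a log axis of RPKM + 1 and grouped by role; circles are WT, squares KO1 and KO2, triangles KO3 and KO4. Most genes have overlapping WT and KO points, and 3 genes (Gins3, Rfc4 and Rpa3) have points at 0, in KO3 or KO4.

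The question of the comparison is whether the replication machinery is expressed at another level in LSK cells without Traf6. With limma (log2(RPKM + 1), Benjamini-Hochberg adjusted over 11276 genes), 0 of the 44 genes passed an adjusted p of 0.05, where 0 of all genes (0%) passed. The smallest adjusted p among the 44 was 0.653. At an unadjusted p under 0.05, 1 of the 44 (2.27%) was called, against 847 genes (7.51%) over the whole table. Groups without overlap were found in the same gene, Cdc6, which is 1 of 44 (2.27%) against 668 of all genes (5.92%). In the direction of Cdc6, with all KO values above all WT values, the share over all genes was 2.05%. These shares are near or below the background.

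The median log2 difference (KO minus WT) of the 44 genes was -0.05, and that of all genes tested was -0.14. The middle 50% of the 44 differences lay between -0.21 and 0.19, against -0.54 and 0.19 for all genes. KO was higher in 19 of the 44 (43.2%, against 39.0% of all genes tested) and lower in 25, and 10 (22.7%) differed by more than 0.5 in either direction, against 37.7% of all genes. For 32 of the 44 (72.7%) the whole 95% interval lay within 1 log2 unit of 0, against 30.01% of all genes. The shares over all genes are not matched for expression level. The intervals reached a median of 0.52 to either side of the estimate, and smaller differences were not resolved by 4 libraries a group. On lane 4 alone, the median difference was 0.06 for the 44 genes and -0.02 for all genes, with 25 of the 44 higher in KO and 4 (9.09%, against 32.1% of all genes) beyond 0.5 (Orc6, Mcm10, Gins1 and Rfc4). The sign of the difference reversed under at least 1 alternative for 21 of the 44 genes, 17 of them within 1 SE of 0, so the counts of higher and lower genes describe these libraries only. Quantile normalization moved the median of all genes from -0.14 to 0.00 and that of the 44 genes to -0.09, so relative to all genes the list went from 0.08 higher to 0.09 lower.

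**Figure D2:**
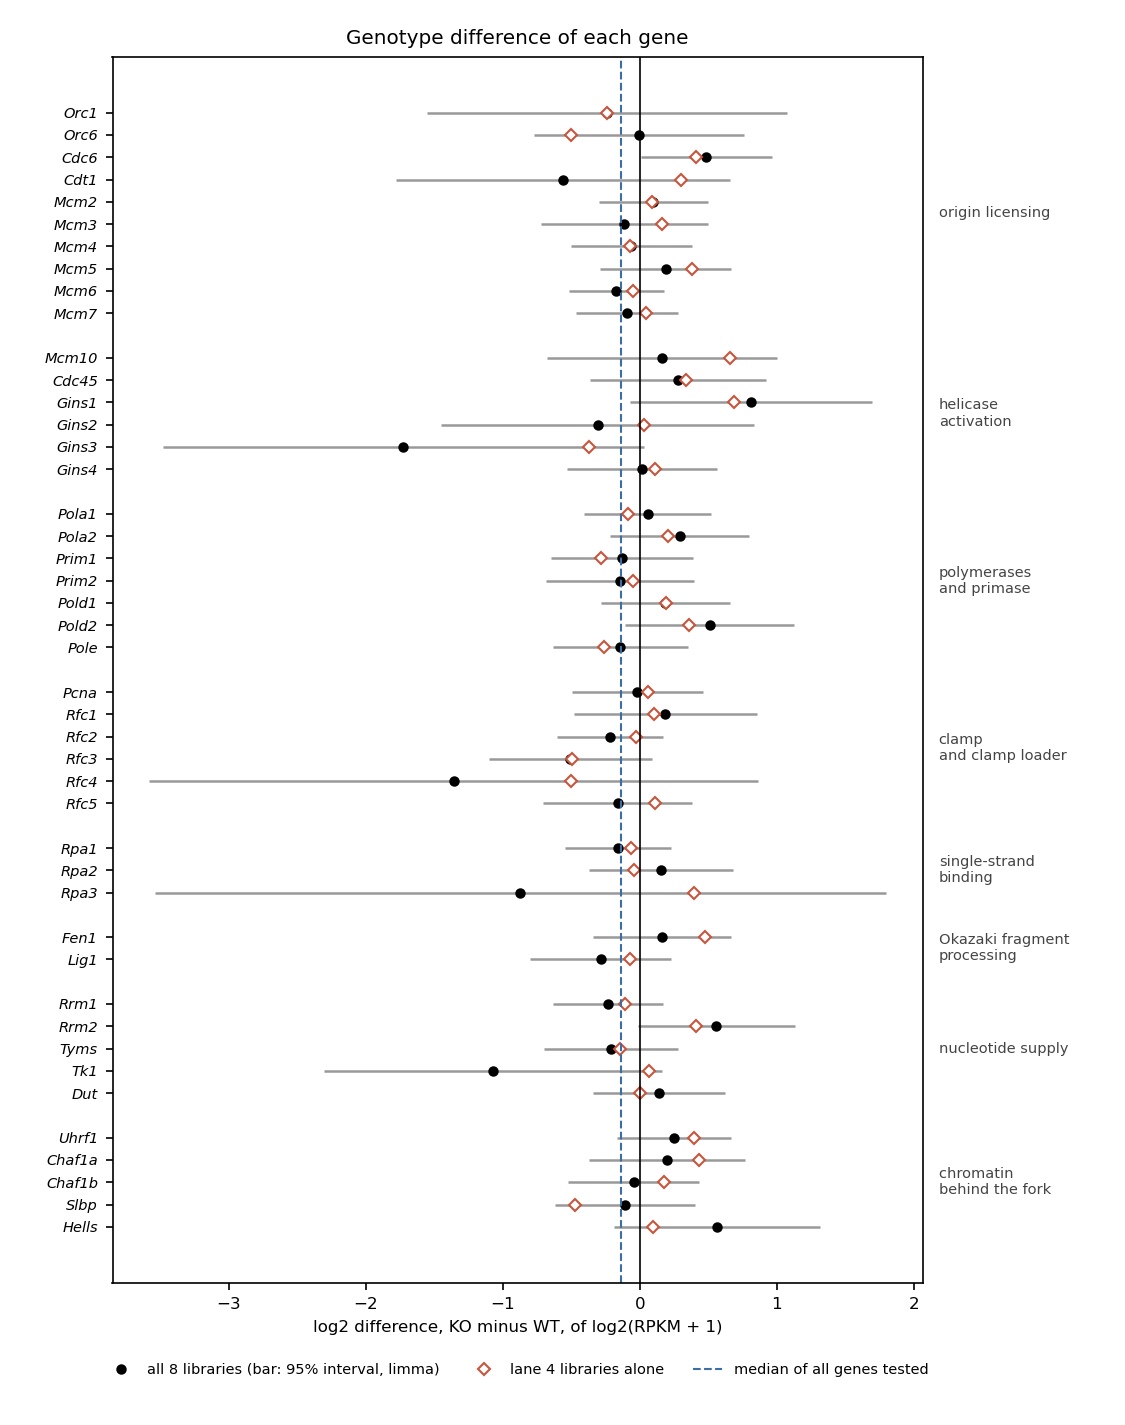
Log2 difference of each gene (KO minus WT, on the log2(RPKM + 1) scale), with the 95% limma interval from all 8 libraries as a bar and lane 4 alone as open diamonds; the dashed line is the median of all genes tested, -0.14. Only the bar of Cdc6 lies wholly above 0, and the widest bars belong to genes listed at 0 in KO3 or KO4.

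Among the 10 licensing genes, KO was higher in 3 and lower in 7, with a median difference of -0.08. Cdc6, the ATPase that recruits MCM to the origin, had 14.6, 15.1, 15.6 and 17.5 RPKM in the WT libraries and 21.9, 20.4, 21.6 and 26.0 RPKM in KO. Every KO library was above every WT library, all of which were on lane 4. The means were 15.7 ± 1.27 (SD, n = 4) and 22.5 ± 2.42 RPKM (SD, n = 4). Its log2 difference was 0.49 ± 0.21 (SE; 95% interval 0.01 to 0.96), with an unadjusted p of 0.0461 and an adjusted p of 0.653 (limma), so it did not pass. On lane 4 alone the difference was 0.41, and over 17 alternative settings it lay between 0.37 and 0.54.

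Mcm7, a subunit of the helicase ring and the most abundant gene of the list, was at 225, 293, 225 and 307 RPKM in WT and 269, 266, 223 and 222 RPKM in KO. The groups overlapped, and the log2 difference was -0.09 ± 0.17 (SE; 95% interval -0.46 to 0.28; adjusted p = 0.892). Mcm6, another subunit of the ring, was at 148, 180.4, 166 and 186 RPKM in WT and 157, 169.8, 130.2 and 147 RPKM in KO. The KO mean was 151 ± 16.7 RPKM against 170.1 ± 16.7 RPKM in WT (SD, n = 4 each), a log2 difference of -0.17 ± 0.16 (SE; adjusted p = 0.778). The other ring subunits differed by 0.10 (Mcm2), -0.11 (Mcm3), -0.06 (Mcm4) and 0.19 (Mcm5) on the log2 scale, with adjusted p of 0.814 or more. On lane 4 alone, Mcm3 differed by 0.16 and Mcm5 by 0.38.

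Orc1, the largest subunit of the origin recognition complex and the lowest of the licensing genes, was at 9.96, 6.55, 1.67 and 12.3 RPKM in WT and 8.45, 3.12, 7.74 and 3.46 RPKM in KO. Both groups spread widely, and the interval of the difference, -1.55 to 1.08 on the log2 scale, leaves its size unresolved. Orc6, a smaller subunit, had means of 25.2 ± 7.64 RPKM in WT and 25.9 ± 11.0 RPKM in KO (SD, n = 4 each), where KO3 and KO4 were at 39.0 and 30.3 RPKM and KO1 and KO2 at 20.0 and 14.3 RPKM. Its log2 difference was -0.01 ± 0.34 (SE) over all libraries, -0.50 on lane 4 alone, -0.67 without WT2, KO3 and KO4 and -0.70 with library weights (adjusted p = 0.141). Cdt1, the MCM loading factor that geminin holds back, was singled out after its values were seen: the WT values were 51.6, 60.1, 47.6 and 64.5 RPKM and the KO values 71.3, 66.0, 9.26 and 42.4 RPKM. KO1 and KO2 lay above every WT library and KO3 and KO4 below, so the log2 difference was -0.56 ± 0.54 (SE; adjusted p = 0.785) over all libraries and 0.30 on lane 4 alone.

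Of the 6 genes of helicase activation, KO was higher in 4, with a median difference of 0.09. Gins2, a subunit of the GINS tetramer, was at 39.2, 87.4, 75.5 and 73.6 RPKM in WT and 67.2, 68.2, 105 and 16.4 RPKM in KO, where KO3 and KO4 held the highest and the lowest value. Its log2 difference was -0.31 ± 0.51 (SE) over all libraries and 0.03 on lane 4 alone. Gins4, another GINS subunit, was at 31.0, 30.8, 41.2 and 42.4 RPKM in WT and 44.1, 34.1, 25.1 and 46.2 RPKM in KO. Its log2 difference was 0.02 ± 0.25 (SE; adjusted p = 0.988). Neither gene separated the groups.

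Gins3, the least abundant GINS subunit, was at 6.89, 3.08, 10.8 and 12.3 RPKM in WT, at 4.49 and 6.73 RPKM in KO1 and KO2, and was listed at 0 in KO3 and KO4. The log2 difference was -1.72 ± 0.79 (SE; 95% interval -3.48 to 0.03; adjusted p = 0.665), and on lane 4 alone it was -0.37. KO3 and KO4 are also the libraries with the most genes listed at 0, and the part of this in the difference was not tested. Gins1, singled out after its values were seen, lay on the opposite side: 10.3, 6.43, 17.6 and 20.7 RPKM in WT and 19.2, 22.6, 37.6 and 16.2 RPKM in KO. Its difference of 0.81 ± 0.40 (SE; adjusted p = 0.665) was 0.69 on lane 4 alone and 0.40 without WT2, KO3 and KO4. Over all libraries, Gins3 and Gins1 had the lowest and the highest difference of the 44 genes, and neither passed. On lane 4 alone the lowest was Rfc4, at -0.51, and without WT2, KO3 and KO4 the highest was Chaf1a, at 0.63. Mcm10, which helps to open the helicase, differed by 0.16 ± 0.38 (SE) over all libraries and by 0.66 on lane 4 alone, with KO3 and KO4 at 6.81 and 10.7 RPKM against 18.4 and 17.7 RPKM in KO1 and KO2. Cdc45, the partner of GINS and MCM, differed by 0.28 ± 0.29 (SE).

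For polymerases and primase, KO was higher in 4 of 7 genes, with a median difference of 0.06. Pola2, the accessory subunit of polymerase alpha, was at 67.5, 56.2, 80.2 and 83.1 RPKM in WT and 87.1, 77.1, 125 and 68.4 RPKM in KO. Pold1, the catalytic subunit of polymerase delta, was at 44.2, 71.0, 79.0 and 62.4 RPKM in WT and 70.5, 73.1, 80.7 and 62.8 RPKM in KO. Prim2, the large subunit of primase, was at 20.4, 14.2, 19.0 and 21.5 RPKM in WT and 17.4, 18.3, 13.2 and 18.4 RPKM in KO. All 3 genes overlapped between the groups, with differences of 0.29, 0.19 and -0.14 on the log2 scale and adjusted p from 0.749 to 0.878.

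Within the same group of genes, Pold2, the second subunit of polymerase delta, was singled out after its values were seen. Its WT libraries held 26.0, 32.99, 50.3 and 37.7 RPKM and its KO libraries 37.6, 56.6, 74.5 and 43.4 RPKM. The difference of 0.51 ± 0.28 (SE; 95% interval -0.11 to 1.12; adjusted p = 0.688) was 0.36 on lane 4 alone. Pole, the catalytic subunit of the leading-strand polymerase, was at 19.9 ± 0.626 RPKM in WT and 18.1 ± 2.86 RPKM in KO (SD, n = 4 each). Pola1 and Prim1, the catalytic subunits of polymerase alpha and primase, differed by 0.06 ± 0.21 and -0.13 ± 0.23 (SE).

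Among the clamp and its loader, 1 of 6 genes was higher in KO, with a median difference of -0.19. Pcna, the sliding clamp, was at 319, 169, 246 and 242 RPKM in WT and 266, 233, 266 and 185 RPKM in KO. The KO values lay inside the WT range, and the difference was -0.02 ± 0.21 (SE; 95% interval -0.49 to 0.46; adjusted p = 0.986). Rfc2, a small subunit of the clamp loader RFC, was at 124, 136, 151 and 161 RPKM in WT and 134, 145, 103 and 111 RPKM in KO. KO3 and KO4 were its lowest libraries, and the difference of -0.22 ± 0.17 (SE) was -0.03 on lane 4 alone.

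Rfc3, the least abundant loader subunit, was at 20.4, 16.2, 21.1 and 24.0 RPKM in WT and 13.3, 14.9, 18.9 and 10.04 RPKM in KO. KO3 alone lay within the WT range; the other 3 KO libraries were below every WT library. Its difference of -0.51 ± 0.27 (SE; 95% interval -1.10 to 0.09; adjusted p = 0.681) was -0.49 on lane 4 alone. Rfc4, singled out for its 0, was at 24.4, 30.4, 22.4 and 35.4 RPKM in WT and 20.0, 18.5, 0 and 37.4 RPKM in KO. Its difference of -1.36 ± 0.98 (SE) was -0.51 on lane 4 alone, and it was -0.20 without KO3. Rfc1, the large subunit, differed by 0.19 ± 0.30 (SE) and Rfc5 by -0.16 ± 0.24 (SE), with 0.11 for Rfc5 on lane 4 alone.

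The 3 subunits of RPA, which coats single-stranded DNA, had a median difference of -0.16. Rpa1, the DNA-binding subunit, was at 80.9, 96.7, 73.1 and 91.8 RPKM in WT and 86.8, 76.4, 66.1 and 76.6 RPKM in KO. Rpa2 was at 37.5, 55.9, 41.7 and 55.2 RPKM in WT and 41.8, 49.3, 48.5 and 74.5 RPKM in KO. Rpa3 was at 36.0, 28.6, 30.3 and 47.0 RPKM in WT and 48.7, 43.9, 0 and 64.9 RPKM in KO. Rpa1 and Rpa2 overlapped between the groups, with differences of -0.16 ± 0.17 and 0.15 ± 0.24 (SE). For Rpa3, KO4 was the highest library and KO3 was listed at 0, and the difference of -0.87 ± 1.18 (SE) over all libraries was 0.40 on lane 4 alone.

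Okazaki fragments are trimmed by the flap endonuclease Fen1 and sealed by the ligase Lig1. Fen1 was at 42.3, 47.5, 44.7 and 52.8 RPKM in WT and 64.3, 66.6, 47.2 and 36.8 RPKM in KO. KO1 and KO2 were above every WT library and KO4 below, and the difference was 0.16 ± 0.23 (SE; adjusted p = 0.851), with 0.48 on lane 4 alone. Lig1 was at 86.5, 129, 103 and 93.4 RPKM in WT and 99.2, 94.1, 93.3 and 55.01 RPKM in KO. KO4 was its lowest library, and the difference was -0.29 ± 0.23 (SE; adjusted p = 0.750), with -0.07 on lane 4 alone.

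For nucleotide supply, KO was higher in 2 of 5 genes, with a median difference of -0.21. Ribonucleotide reductase makes deoxynucleotides from a large subunit, Rrm1, and a small subunit, Rrm2. Rrm1 was at 124, 97.7, 95.2 and 108 RPKM in WT and 103, 92.3, 70.3 and 96.1 RPKM in KO, a difference of -0.23 ± 0.18 (SE; adjusted p = 0.749). Rrm2, singled out after its values were seen, was at 50.2, 59.5, 43.0 and 66.3 RPKM in WT and 96.5, 54.1, 112 and 69.8 RPKM in KO. KO2 lay within the WT range and the other 3 KO libraries above it. The difference of Rrm2 was 0.56 ± 0.26 (SE; 95% interval -0.01 to 1.13; adjusted p = 0.665), with 0.41 on lane 4 alone. The ratio of Rrm2 to Rrm1 in the WT libraries was 0.407, 0.609, 0.452 and 0.615, and in the KO libraries 0.934, 0.586, 1.60 and 0.727, so KO2 was again the library inside the WT range.

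Dut, which removes dUTP before it can enter DNA, was at 61.2, 71.3, 64.4 and 91.0 RPKM in WT and 68.3, 73.9, 68.2 and 110.0 RPKM in KO. Tyms, thymidylate synthase, was at 24.8, 23.2, 32.6 and 24.7 RPKM in WT and 20.3, 27.1, 19.4 and 23.6 RPKM in KO. Both overlapped between the groups, with differences of 0.14 ± 0.22 and -0.21 ± 0.22 (SE). Tk1, the thymidine kinase of the salvage route, was singled out after its values were seen. It was at 31.8, 50.1, 34.7 and 36.8 RPKM in WT and 43.8, 35.6, 7.54 and 7.24 RPKM in KO. KO3 and KO4 were the low libraries and KO1 and KO2 lay within the WT range: the difference was -1.07 ± 0.55 (SE; 95% interval -2.31 to 0.16; adjusted p = 0.681) over all libraries and 0.06 on lane 4 alone. For KO3 and KO4, lane and library cannot be told apart.

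Behind the fork, KO was higher in 3 of 5 genes, with a median difference of 0.20. Over all libraries, all 5 lay above the median of all genes, -0.14. On lane 4 alone, Slbp lay below that median, which was -0.02. Slbp, which binds the stem-loop of histone mRNAs, was at 97.5, 82.9, 103 and 106 RPKM in WT and 63.1, 77.2, 107 and 124 RPKM in KO. KO1 and KO2 were below every WT library and KO3 and KO4 above, and the difference was -0.11 ± 0.23 (SE) over all libraries and -0.47 on lane 4 alone. Uhrf1, which guides maintenance DNA methylation, was at 59.6, 58.3, 57.3 and 71.5 RPKM in WT and 83.1, 79.4, 77.6 and 56.5 RPKM in KO. KO1, KO2 and KO3 were above every WT library and KO4 was below, a difference of 0.25 ± 0.19 (SE; 95% interval -0.16 to 0.67; adjusted p = 0.738). Hells, a chromatin remodeller of the same pathway, was at 37.2, 19.0, 26.6 and 36.5 RPKM in WT and 29.7, 31.9, 76.1 and 47.4 RPKM in KO. Its highest libraries were KO3 and KO4, and the difference of 0.56 ± 0.34 (SE; adjusted p = 0.702) was 0.09 on lane 4 alone. Chaf1a and Chaf1b, subunits of the histone chaperone CAF-1, differed by 0.20 ± 0.26 and -0.05 ± 0.21 (SE), and by 0.43 and 0.17 on lane 4 alone.

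Subunits that work in equal numbers in 1 complex differed in mRNA, with ratios of means from 1.42 to 12.0 between the top and bottom subunit. The top and bottom subunits of a complex were mostly the same from library to library. The smallest ratios were 1.42 for Rrm1 over Rrm2, 1.51 for Pold1 over Pold2 and 1.59 for Chaf1b over Chaf1a. These orders held in 7, 8 and 7 of 8 libraries. In the MCM ring, Mcm7 (254 ± 34.6 RPKM, SD, n = 8) was the highest subunit in 8 of 8 libraries and Mcm4 (43.3 ± 6.10 RPKM) the lowest in 8 of 8, a ratio of means of 5.86. Between them, Mcm6 (161 ± 18.5 RPKM) and Mcm3 (154 ± 34.8 RPKM) did not differ beyond their spread, with Mcm6 above in 5 of 8 libraries. The next neighbours, Mcm2 (104 ± 13.8 RPKM) and Mcm5 (94.0 ± 18.3 RPKM), were also within their spread, again 5 of 8.

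GINS had the widest range: Gins2 (66.5 ± 27.4 RPKM, SD, n = 8) was highest in 7 of 8 libraries and Gins3 (5.54 ± 4.56 RPKM) lowest in 8, a ratio of means of 12.0. With the 0 values of Gins3 in KO3 and KO4, this ratio was 8.33 in WT and 22.9 in KO, and on lane 4 alone it was 9.28. In the clamp loader, Rfc2 (133 ± 19.8 RPKM) led in 8 of 8 libraries, with Rfc5 (72.7 ± 16.3 RPKM) next, and Rfc3 (17.4 ± 4.59 RPKM) was lowest in 6, a ratio of 7.66. In the polymerase alpha and primase complex, Pola2 (80.5 ± 20.4 RPKM) was above Prim1 (41.4 ± 8.98 RPKM) in 8 of 8 libraries and Prim2 (17.8 ± 2.85 RPKM) was below Pola1 (32.6 ± 4.65 RPKM) in 8 of 8. For RPA, the order was Rpa1 (81.1 ± 10.2 RPKM), Rpa2 (50.6 ± 11.7 RPKM) and Rpa3 (37.4 ± 19.1 RPKM), and Rpa1 was above Rpa2 in every library. RPKM depends on the gene length used by the authors, so these ratios carry any error in that length.

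**Figure D3:**
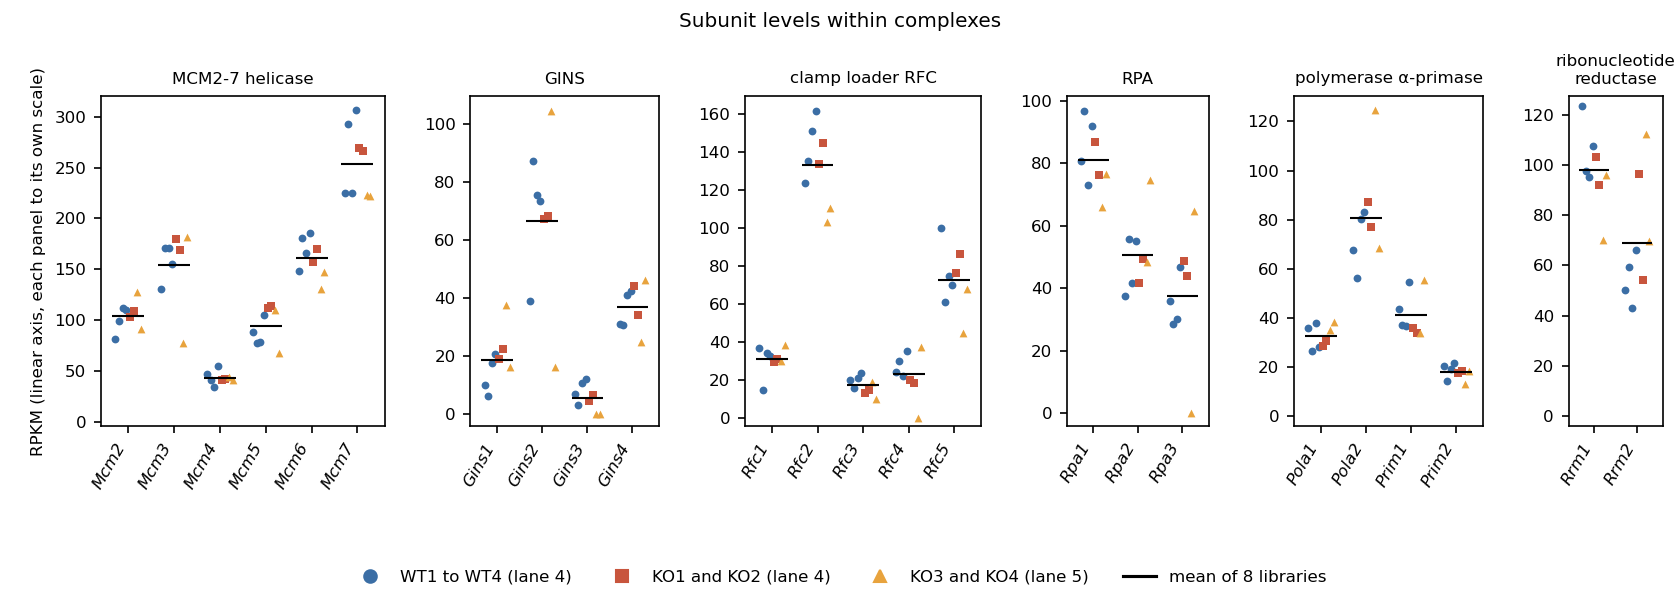
RPKM of the subunits of each complex on linear axes, with 1 point per library (circles WT, squares KO1 and KO2, triangles KO3 and KO4) and a bar at the mean of 8 libraries. Mcm7 and Rfc2 lie above their partners in all 8 libraries, and Gins3 lies at the bottom of GINS.

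The wider pathway was described with lists of genes outside the 44. Of 42 other fork and origin genes, 18 were higher in KO and 24 lower, with a median difference of -0.07 and 0 passing. Cdc7, the kinase that fires licensed origins, was at 18.3, 41.4, 26.3 and 23.1 RPKM in WT and 13.4, 13.9, 12.4 and 13.04 RPKM in KO. All KO libraries were below all WT libraries and close together, and the difference was -0.93 ± 0.28 (SE; unadjusted p = 0.00687, adjusted p = 0.515), with -0.89 on lane 4 alone. Groups without overlap were found in 2 of the 42 genes, Cdc7 and Orc4, against 5.92% of all genes. Asf1b, a histone chaperone, was at 8.37 ± 2.85 RPKM in WT and 15.1 ± 2.61 RPKM in KO (SD, n = 4 each), a difference of 0.81 ± 0.33 (SE; adjusted p = 0.634). The abundant genes Ssrp1 and Top2a differed by 0.00 ± 0.22 and -0.15 ± 0.15 (SE).

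Of 33 other nucleotide synthesis genes, 14 were higher in KO, with a median difference of -0.05. Dtymk, the thymidylate kinase that acts after both Tk1 and Tyms, had 79.9, 71.6, 89.3 and 87.2 RPKM in WT and 71.7, 72.5, 33.4 and 34.1 RPKM in KO. As for Tk1, KO3 and KO4 were the low libraries, and the difference of -0.71 ± 0.29 (SE; adjusted p = 0.634) was -0.18 on lane 4 alone. The purine synthesis genes Paics and Impdh2, at 276 ± 14.9 and 219 ± 61.5 RPKM in WT (SD, n = 4 each), differed by -0.06 ± 0.14 and -0.01 ± 0.26 (SE), and Atic by 0.44 ± 0.22 (SE).

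Of 22 checkpoint and repair genes, 10 were higher in KO, with a median difference of -0.06. Atr, the kinase that senses stalled forks, was at 15.8, 15.8, 15.1 and 11.9 RPKM in WT and 6.75, 9.73, 6.16 and 8.38 RPKM in KO. No libraries overlapped, and the difference was -0.85 ± 0.29 (SE; unadjusted p = 0.0152, adjusted p = 0.620), with -0.77 on lane 4 alone. Atr was the only gene of the 22 without overlap, against 5.92% of all genes. Chek1, its effector kinase, was at 18.05 ± 6.28 and 10.6 ± 3.84 RPKM (SD, n = 4 each), a difference of -0.73 ± 0.35 (SE; adjusted p = 0.665). Msh6, a mismatch repair gene, differed by -0.06 ± 0.29 (SE).

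Of 16 genes of the E2F and RB families and their cyclin partners, 5 were higher in KO, with a median difference of -0.25. Tfdp1, the DNA-binding partner of E2F proteins, was at 98.3, 117, 105 and 110.4 RPKM in WT and 159, 129.9, 158 and 124 RPKM in KO. All KO values were above all WT values, with a difference of 0.40 ± 0.16 (SE; unadjusted p = 0.0319, adjusted p = 0.634). Groups without overlap were found in 2 of the 16 genes, against 5.92% of all genes. The other was Rb1, with all KO values below all WT values and a difference of -0.80 ± 0.38 (SE; adjusted p = 0.665). Cdk2, the S phase kinase, was at 56.5 ± 13.5 and 37.2 ± 12.6 RPKM (SD, n = 4 each), a difference of -0.62 ± 0.29 (SE). E2f4, a repressor of the family, differed by 0.10 ± 0.21 (SE).

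Of 30 mitosis genes, 11 were higher in KO, with a median difference of -0.10. The groups did not overlap in 3 of the 30 genes, against 5.92% of all genes. These were Bub1b, with KO above WT, and Anln and Mki67, with KO below WT. Mki67, a gene of dividing cells, was at 86.8 ± 6.47 RPKM in WT and 67.1 ± 11.5 RPKM in KO (SD, n = 4 each). Its log2 difference was -0.38 ± 0.18 (SE; limma adjusted p = 0.665), with -0.50 on lane 4 alone. Bub1b, a spindle checkpoint kinase, was at 36.2 ± 2.57 and 48.0 ± 5.14 RPKM (SD, n = 4 each; log2 difference 0.40 ± 0.18 SE, adjusted p = 0.660). Anln, which acts in cytokinesis, was at 13.1 ± 0.740 and 6.96 ± 3.53 RPKM (SD, n = 4 each; log2 difference -0.94 ± 0.38 SE, adjusted p = 0.637). The most abundant mitosis genes, Ube2c and Kif11, differed by -0.00 ± 0.24 and -0.38 ± 0.21 (SE). Replication and mitosis genes thus had like medians in this comparison, with no gene of either list past the threshold.

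A gene list outside replication differed more in its values. Of 17 tested stem cell quiescence genes, 1 was higher in KO and 16 lower, with a median difference of -1.005. Of all genes tested, 39.0% were higher in KO. The lists were chosen with earlier results of these data known, so this count is a description and not a test. The median SD within groups was 0.78 for this list, against 0.32 for the 44 genes. Cdkn1c, an inhibitor of cyclin-dependent kinases, was at 4.40 ± 0.666 and 0.646 ± 0.746 RPKM (SD, n = 4 each; difference -1.83 ± 0.48 SE, adjusted p = 0.441), and Procr, a stem cell surface protein, at 19.6 ± 6.40 and 7.92 ± 4.45 RPKM (difference -1.27 ± 0.38 SE, adjusted p = 0.515). The most abundant genes of the list, the early response gene Nr4a1 and Txnip, were at 493 ± 357 and 141 ± 67.3 RPKM in WT and 169 ± 116 and 54.1 ± 19.6 RPKM in KO (SD, n = 4 each). Procr, Nr4a1 and Txnip overlapped between the groups. Cdkn1c, Cdkn1b and Mecom, 3 of the 17, did not overlap and were lower in KO, against 5.92% of all genes without overlap in either direction. Of 9 tested granulocyte and monocyte markers, 9 were higher in KO, with a median difference of 1.68, 0 past the adjusted threshold, and sums of 611 to 1843 RPKM in WT and 2118 to 8039 RPKM in KO. With library weights, 4 of them (Mpo, Ctsg, Csf1r and Itgam, limma adjusted p from 0.0270 to 0.0497) passed. Procr and Socs2 of the quiescence list and Flt3 of the gate genes passed as well. The same fit called 164 of all 11276 genes tested, and it weighted KO2 at 6.50 and KO3 at 0.137. Elane, Prtn3, Ms4a3, Ly6c2 and S100a9 overlapped between the groups. For Mpo, Ctsg, Csf1r and Itgam, 4 of the 9, all KO values were above all WT values, against 2.05% of all genes. The part of these markers in the values above was not tested.

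Set against the mean of all genes tested, the level of the 44 genes on the log2(RPKM + 1) scale came to 1.63, 1.76, 1.65 and 1.84 in the WT libraries and 1.86, 1.73, 1.99 and 1.77 in the KO libraries. The group means were 1.72 ± 0.10 and 1.84 ± 0.12 (SD, n = 4 each), and the difference of 0.12 (KO minus WT) was about the size of the spread within groups. Without KO3, the highest library, the difference was 0.064, and on lane 4 alone it was 0.070; the many genes listed at 0 in KO3 enter the mean of all genes that is subtracted. The level of the quiescence list was 0.56 ± 0.11 in WT and -0.21 ± 0.46 in KO, and that of the mitosis list 1.45 ± 0.05 and 1.48 ± 0.17. KO3 was the highest library for 10 of the 44 genes and the lowest for 15, and KO4 for 11 and 9. These 2 libraries thus held 21 of the 44 highest values and 24 of the 44 lowest. The like counts over all genes were not made, so this is not shown to be particular to the 44 genes.

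**Figure D4:**
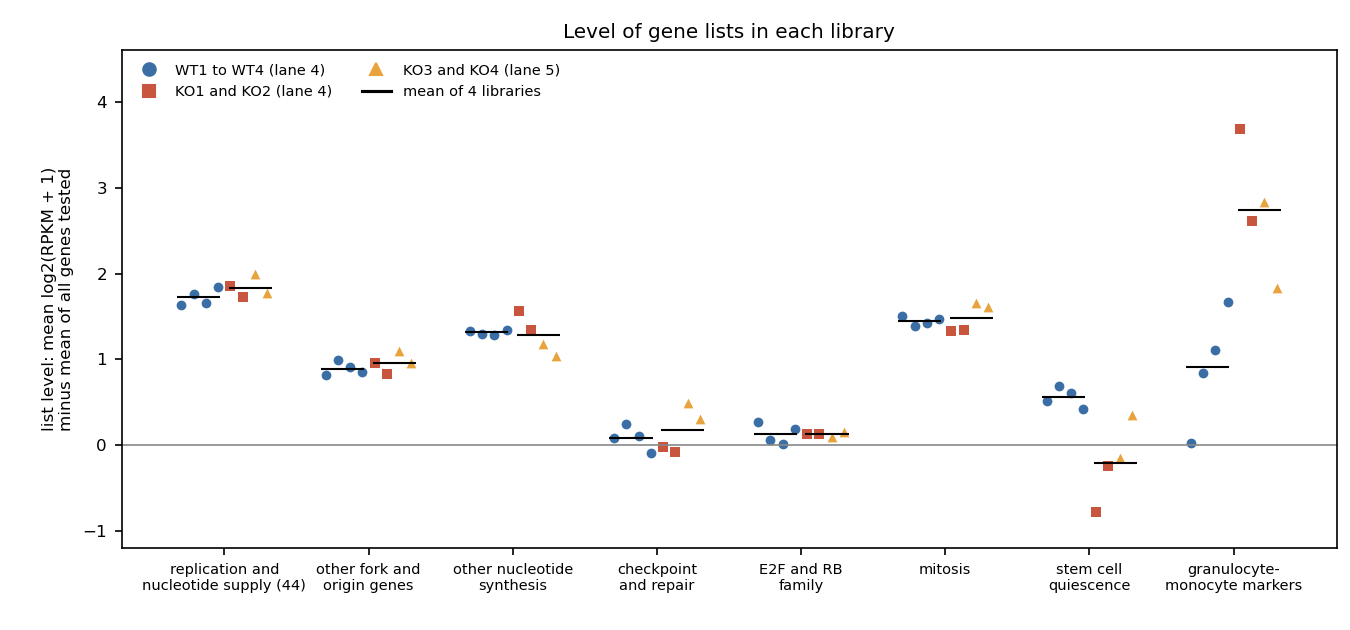
Level of each gene list in each library: the mean log2(RPKM + 1) of its genes minus the mean of all genes tested, with circles for WT, squares for KO1 and KO2, triangles for KO3 and KO4, and bars at the group means. The replication list lies between 1.63 and 1.99 in all 8 libraries, with WT and KO points overlapping.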

How the data were processed

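RNA of LSK cells was measured in 4 WT and 4 KO libraries (genotype, title and lane per the labels). The deposited values are RPKM made by the authors, 1 per Entrez gene; the unit is inferred from the values. TopHat, edgeR and build mm9 appear in the submitters' processing notes without role or version; a counting tool and annotation are not named. Symbols were matched for 24029 of 24112 identifiers. Promoter sequences come from another build (GRCm38.p6) and were matched by symbol only.

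The 11276 genes that reached 1 RPKM in 4 or more libraries were tested as log2(RPKM + 1) with limma 3.58.1 in R 4.3.3 (all 8 libraries, genotype only, eBayes with trend and robust variance), Benjamini-Hochberg adjusted over all genes tested, with a threshold of 0.05. The fit was tested on simulated data. Depth was estimated from steps between values up to 0.2 RPKM; per library, 46 to 92 values could be used and 50.0% to 59.6% were whole reads (within 0.03 reads), so no count test was run and depth is approximate. Members, lists and alternatives were chosen with earlier results of these data known.

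Values in every library were due for members whose groups do not overlap or with unadjusted p under 0.05, and for the 2 highest and the lowest member of each role; of each pathway list, the 2 genes of smallest p and the 2 of highest mean were named. Some genes due by this rule or on the marker lists are not reported here; they remained in the tables and lists. Alternatives were the filter (none, or 5 RPKM), a pseudocount of 0.1, quantile normalization, library weights, a lane covariate, lane 4 alone, a replicate block, an adjusted p under 0.1, leaving out each library, and leaving out WT2, KO3 and KO4. Ly6g and Ighm were not analysed here.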

Additional observations from a re-analysis of the deposited data

Results flagged for a closer look

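In 7 of 90 groups of 4 libraries, 1 library lay far from the other 3: its gap to the nearest value, divided by the range of the group, was above Dixon's 95% critical value. Chance flags about 1 in 20 such groups. For the helicase subunit Mcm3, KO3 was at 78.0 RPKM, against 169 to 181 RPKM in the other KO libraries. For Mcm5, KO4 was at 67.6 RPKM, against 110.0 to 113 RPKM. For Lig1, KO4 was at 55.01 RPKM, against 93.3 to 99.2 RPKM. KO4 was instead the high library for Prim1, at 55.4 RPKM against 33.7 to 35.9 RPKM, and for Dut, at 110.0 RPKM against 68.2 to 73.9 RPKM. Among the WT libraries, WT3 was high for Tyms, at 32.6 RPKM against 23.2 to 24.8 RPKM, and WT4 for Uhrf1, at 71.5 RPKM against 57.3 to 59.6 RPKM. Of the 7 distant values, 5 belonged to KO3 or KO4, the lane 5 libraries, which also list the most genes at 0.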

How the results depend on the processing

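No replication gene passed under any of 17 alternatives (smallest adjusted p 0.141, for Orc6 with library weights). Genes called in all were 164 with library weights, 2 on lane 4 alone, 3 without WT2, KO3 and KO4, and 0 to 2 when 1 library was left out (2 without KO3). The weights gave KO2 6.50, against 0.137 to 2.02 for the other libraries. The 164 include Traf6 (-2.52, adjusted p = 0.00785), Procr (-1.54, adjusted p = 0.0242), Socs2, Flt3, Mpo, Ctsg, Csf1r and Itgam. The members' median relative to all genes was 0.08, lay between 0.05 and 0.14 under the other settings and was -0.092 after quantile normalization.

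Of 748 values of members under alternatives, 74 had the opposite sign; they belong to 21 of the 44 genes, and 17 of these 21 were within 1 SE of 0 over all libraries. On lane 4 alone, and with lane as a covariate, which gives the same values, Cdt1 was 0.30, Chaf1b 0.17, Dut -0.0011, Gins2 0.034, Impdh2 0.019, Mcm3 0.16, Mcm7 0.042, Pcna 0.063, Pola1 -0.088, Rfc5 0.11, Rpa2 -0.046, Rpa3 0.40 and Tk1 0.064. With library weights, Cdt1 was 0.22, Chaf1b 0.12, Gins4 -0.074, Mcm3 0.12, Mcm7 0.056, Pola1 -0.097, Rfc1 -0.046, Rfc5 0.10 and Rpa3 0.24. After quantile normalization, Gins4 was -0.0080 and Ssrp1 -0.069. Without WT2, KO3 and KO4, Cdt1 was 0.34, Chaf1b 0.051, Dut -3.7e-05, Gins2 0.17, Hells -0.099, Lig1 0.040, Mcm3 0.20, Mcm7 0.10, Pola1 -0.17, Rfc1 -0.19, Rfc5 0.010, Rpa3 0.31 and Tk1 0.20. The cause was not tested.

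When each library was left out in turn, the differences with a change of sign ran from -0.87 to 0.072 for Cdt1, -0.17 to 0.070 for Chaf1b, -0.021 to 0.26 for Dut, -0.031 to 0.21 for E2f4, -0.63 to 0.24 for Gins2, -0.095 to 0.19 for Gins4, -0.21 to 0.16 for Impdh2, -0.014 to 0.42 for Mcm10, -0.22 to 0.18 for Mcm3, -0.17 to 0.050 for Mcm4, -0.29 to 0.083 for Msh6, -0.73 to 0.045 for Orc1, -0.23 to 0.23 for Orc6, -0.18 to 0.12 for Pcna, -0.026 to 0.14 for Pola1, -0.11 to 0.32 for Rfc1, -0.28 to 0.025 for Rfc5, -0.015 to 0.26 for Rpa2, -1.46 to 0.56 for Rpa3, -0.26 to 0.058 for Slbp, -0.13 to 0.18 for Ssrp1 and -0.18 to 0.15 for Ube2c.

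Correlations of the deviations from the group means were -0.08 to -0.04 for same-numbered WT and KO libraries and -0.09 to 0.14 for the other pairs. Deviations from a group mean are forced to average near 0 over the pairs. These correlations therefore cannot settle whether same-numbered libraries were prepared together, which is not stated. With the replicate number as a block, 0 genes were called in all, the members' median relative to all genes was 0.08 and the smallest adjusted p of a member was 0.781.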
